A study of Arabidopsis thaliana with 12 samples.

Results

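The mRNA of QQS (AT3G30720) was followed together with 9 mRNAs of starch synthesis in polysomal and non-polysomal RNA of *Arabidopsis thaliana* seedlings. The 9 encode the starch synthases SS1 (AT5G24300), SS2 (AT3G01180), SS3 (AT1G11720) and SS4 (AT4G18240), the granule-bound synthase GBSS1 (AT1G32900), and the enzymes of substrate supply PGI1 (AT4G24620), PGM1 (AT5G51820), APL1 (AT5G19220) and APS1 (AT5G48300). The 10 genes were found on the Affymetrix ATH1 array by locus, 1 probe set each, among 22591 probe sets that name a single locus. QQS was selected on its signal level, which differed between the genotypes, so its own differences between genotypes are given as a description without a test. The starch synthesis genes were added for their function, to ask whether they move with QQS.

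Seedlings were wild-type (WT) or *eif3k* in ecotype Columbia. The *eif3k* line carries a T-DNA in the last intron of the gene for eIF3k (AT4G33250), a subunit of translation initiation factor eIF3. By the account of the study it makes a transcript truncated at the 3′ end, no full-length transcript, and plants with no obvious phenotype. Only this 1 insertion line was profiled. Both genotypes were grown on medium with 1% sucrose at 22 degrees, and the aerial part was harvested at 11 days, by the labels 4 h after lights on in a 16 h day, while the methods of the study name continuous light. Lysates were run on sucrose gradients, and the top 6 fractions made the non-polysomal pool (NP) and the bottom 6 the polysomal pool (PL). By the methods of the study, NP holds free and monosomal mRNA. Each pool went to 1 array, in 3 replicates per genotype, 12 arrays in all. Values are log2 signals, and the translation state (TL, or ribosome loading) is log2 PL minus log2 NP of a replicate. The signal level averages the log2 signals of both pools of a replicate. All arrays were scaled together, so a TL of 0 is no equal split between the pools.

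QQS is an orphan gene, known only from this species, and encodes a short protein. Plants with less QQS mRNA accumulate more leaf starch, the protein binds the transcription factor subunit NF-YC4, and its expression is known to vary with DNA methylation at the locus. Starch is made in the plastid: PGI1 and PGM1 convert sugar phosphates to glucose 1-phosphate, the ADP-glucose pyrophosphorylase of small subunit APS1 and large subunit APL1 makes ADP-glucose, and the synthases add its glucose to growing chains. No sequences are shown, because the sources used here hold none for these genes.

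On the arrays, log2 signals ran from a floor of 2.33 to 15.26. The 3 shoot markers with a probe set (of 4 listed) lay between 10.94 and 14.9 on the 12 arrays, and 5 of 6 root markers never exceeded 3. The summed level of the root markers was 15.53 to 15.74 in WT and 15.5 to 15.82 in *eif3k*, and that of the shoot markers was 39.92 to 42.32 and 41.92 to 42.49. The eIF3k probe set had levels of 8.94, 9.17 and 8.14 in WT and 7.24, 7.50 and 7.84 in *eif3k*, a difference of -1.23 (SE 0.33) that was not called, and whether it lies before or after the insertion is not given in the sources used here. WT replicate 3 stands apart. Its TL correlated with that of the other 5 samples at r = 0.297 to 0.362 across probe sets, against 0.741 to 0.896 among those 5, and the SD of log2 signals on its PL array was 1.94, against 2.15 to 2.29 on the other 11. Results that rest on it are therefore also given without it.

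QQS mRNA was higher in *eif3k* in both pools, and most of all in the non-polysomal pool. In WT its log2 NP signals were 5.44, 5.67 and 4.29, against 9.27, 9.57 and 8.91 in *eif3k*. Both sets of values lie far apart, with means of 5.13 ± 0.74 and 9.25 ± 0.33 (SD, n = 3). In PL it had log2 signals of 3.72, 3.28 and 5.39 in WT, against 6.60, 6.41 and 6.86 in *eif3k*, with means of 4.13 ± 1.11 and 6.62 ± 0.23 (SD, n = 3). The highest WT value, from replicate 3, still lay below the lowest *eif3k* value. In bulk tissue a difference of this kind does not separate more cells with the mRNA from more mRNA per cell.

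**Figure D1:**
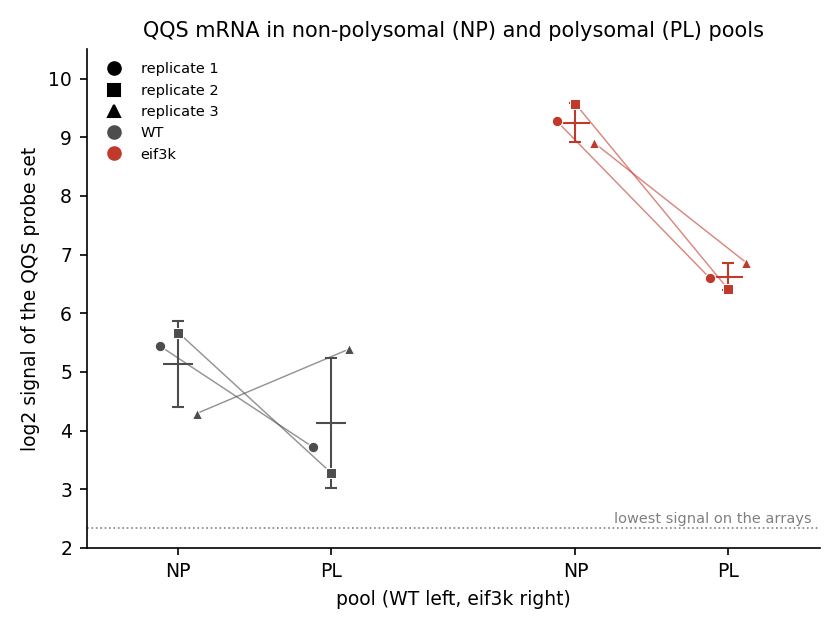
Log2 signal of the QQS probe set (vertical axis) in the NP and PL pools of WT (grey) and *eif3k* (red), with 1 marker shape per replicate, lines joining the pools of a replicate, and bars for mean and SD (n = 3). All *eif3k* values (6.41 to 9.57) lie above all WT values (3.28 to 5.67), and the line falls from NP to PL in 5 of 6 samples, WT replicate 3 being the exception.

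The difference between genotypes was 4.12 (SE 0.44) in log2 NP, or 17.3-fold, and 2.49 (SE 0.62) in log2 PL, or 5.63-fold. By replicate number the NP difference was 3.83, 3.90 and 4.62, and the PL difference 2.88, 3.13 and 1.47. The smallest PL and the largest NP difference thus came from replicate 3. Without WT replicate 3 the differences were 3.70 in NP and 3.12 in PL, so NP and PL then differed less from each other. In signal level the WT values were 4.58, 4.47 and 4.84 and the *eif3k* values 7.94, 7.99 and 7.88, a difference of 3.31 (SE 0.11), or 9.88-fold. This was the largest of 22746 differences in level, and the next in size, of a plastid-encoded mRNA, was -2.31 (singled out after the values were seen). It is also the value by which QQS was chosen, so its rank follows from the choice. As background for the other genes, limma called 0.0044% of the 22746 probe sets in level (adjusted p under 0.05 and a size of 1 or more), and nothing is read from this for QQS.

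QQS mRNA had a low TL in 5 of 6 samples. Its TL was -1.72, -2.39 and 1.10 in WT and -2.67, -3.16 and -2.05 in *eif3k*. The PL signals of WT replicates 1 and 2, 3.72 and 3.28, were under a log2 signal of 4, against 6.41 to 6.86 in *eif3k*. The TL of these WT samples is thus less certain, and how far the floor of 2.33 limited it was not tested. Among the 9814 probe sets with a mean log2 signal of at least 4, the share with a TL at or below that of QQS was 4.17% and 1.73% in WT replicates 1 and 2, and 0.866%, 0.683% and 2.43% in the *eif3k* replicates. WT replicate 3 stood at the other end, at 92.3%. These positions are within a sample and do not use the genotype difference by which QQS was selected.

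Tested against 0, the TL of QQS in *eif3k* was -2.63 (SE 0.74), rank 102 by size of 22746, with an adjusted p of 0.127 in limma. Over the 13 alternatives the adjusted p ranged from 0.0134 to 0.444, and QQS was called in 3 of them: with dim probe sets left out (0.0134), without WT replicate 3 (0.0226) and in a fit of all 12 arrays without pairing (0.0239). In WT it was -1.0 (SE 0.74, adjusted p = 0.447) and -2.06 without replicate 3, and no alternative called it (adjusted p 0.0589 to 0.962). Both genotypes share 1 estimate of the spread in this fit, so WT replicate 3 widens the error of the *eif3k* value as well. For comparison, 4.84% of probe sets were called in TL against 0 in WT and 4.73% in *eif3k*, in either direction (1100 and 1076 probe sets, and 394 and 364 when the replicate number was a block). Calls were more common in the 3 settings that called QQS. In *eif3k* they numbered 2174 of 9814 with dim probe sets left out, 1878 of 22746 without WT replicate 3 and 1369 of 22746 without pairing.

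The TL of QQS was lower in *eif3k* than in WT by replicate number, with differences of -0.95, -0.77 and -3.15 and an estimate of -1.62 (SE 1.05). The values of the genotypes overlapped, since WT replicate 2 lay below *eif3k* replicate 3. Without WT replicate 3 the estimate was -0.57, and without replicate 3 of both genotypes -0.86. The size of this difference thus rested on WT replicate 3. In replicates 1 and 2 it rested on WT PL signals of 3.72 and 3.28, not far above the floor.

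The 9 starch synthesis mRNAs did not show a difference like that of QQS. In signal level the median difference was 0.20 (range -0.29 to 0.80, 7 of 9 above 0), beside 0.13 over the 9814 brighter probe sets. None was called (adjusted p 0.818 to 1 in limma), beside 0.0044% of all probe sets. Before adjustment 664 of 22746 probe sets had a p under 0.05, and the 9 were not among them. Without WT replicate 3 the median was -0.14 with 3 of 9 above 0, and without replicate 3 of both genotypes it was 0.01 with 5 of 9 above 0. In replicates 1 and 2 the differences in level of the 9 lay between -0.68 and 0.39, whereas QQS differed by 3.36 and 3.52. Only 2 of 9 kept the same sign in the 3 replicate pairs.

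**Figure D2:**
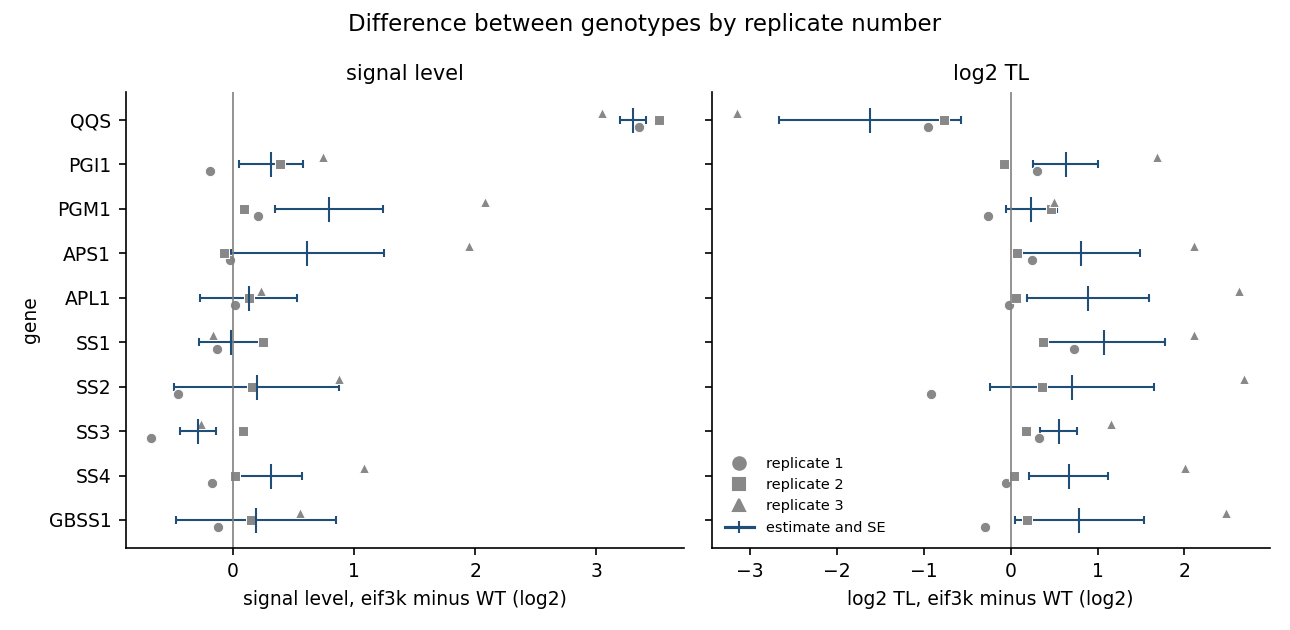
Differences between genotypes (*eif3k* minus WT, log2) in signal level (left) and TL (right) for QQS and the 9 starch synthesis genes, with grey markers for the 3 replicate numbers and blue bars for the estimate and its SE. QQS stands alone in level at 3.05 to 3.52, and in TL the replicate 3 markers of the starch synthesis genes lie at 0.50 to 2.69 while that of QQS lies at -3.15.

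PGI1, the plastid phosphoglucose isomerase, had levels of 6.38, 6.30 and 6.41 in WT and 6.20, 6.68 and 7.15 in *eif3k*, a difference of 0.31 (SE 0.26) with overlapping values. PGM1, the plastid phosphoglucomutase without which leaves make almost no starch, had the largest estimate of the 9. Its levels were 5.90, 5.86 and 4.64 in WT and 6.11, 5.96 and 6.72 in *eif3k*, a difference of 0.80 (SE 0.45, adjusted p = 0.818). The genotypes did not overlap for PGM1 in level, nor in PL, where the values were 5.78, 5.71 and 4.64 against 5.86, 6.04 and 6.97. This is 1 of 9 starch synthesis genes in each case, where 7.56% of all probe sets did not overlap in level and 6.13% in PL. By replicate number the level of PGM1 differed by 0.21, 0.10 and 2.08, and without WT replicate 3 the difference was 0.38.

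The subunits of ADP-glucose pyrophosphorylase differed between the genotypes by -0.08 to 0.13 in level in replicates 1 and 2. APS1 had levels of 6.68, 6.60 and 4.63 in WT and 6.65, 6.53 and 6.58 in *eif3k*, a difference of 0.61 (SE 0.63) that became -0.06 without WT replicate 3. APL1 had levels of 8.56, 8.76 and 7.72 in WT and 8.59, 8.89 and 7.95 in *eif3k*, a difference of 0.13 (SE 0.40). In both genes the low WT value was that of replicate 3.

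Among the chain-elongating synthases the differences in level were between -0.29 and 0.31. SS1, which makes short chains of amylopectin, differed by -0.02 (SE 0.26). SS2, which makes intermediate chains, had levels of 5.98, 5.31 and 3.74 in WT and 5.54, 5.47 and 4.62 in *eif3k* and differed by 0.20 (SE 0.68). SS3, which makes long chains, differed by -0.29 (SE 0.15), and SS4, which acts in granule initiation, by 0.31 (SE 0.26). GBSS1, which makes amylose, had levels of 7.90, 7.63 and 6.03 in WT and 7.78, 7.78 and 6.58 in *eif3k* and differed by 0.19 (SE 0.66). In SS2 and GBSS1, replicate 3 was the lowest of both genotypes. For SS2 and GBSS1 a difference of 1 in either direction lies within 2 standard errors of the estimate, and for APS1 and PGM1 a rise of 1. These arrays thus do not show their levels to be equal, nor those of the other starch synthesis genes.

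**Figure D3:**
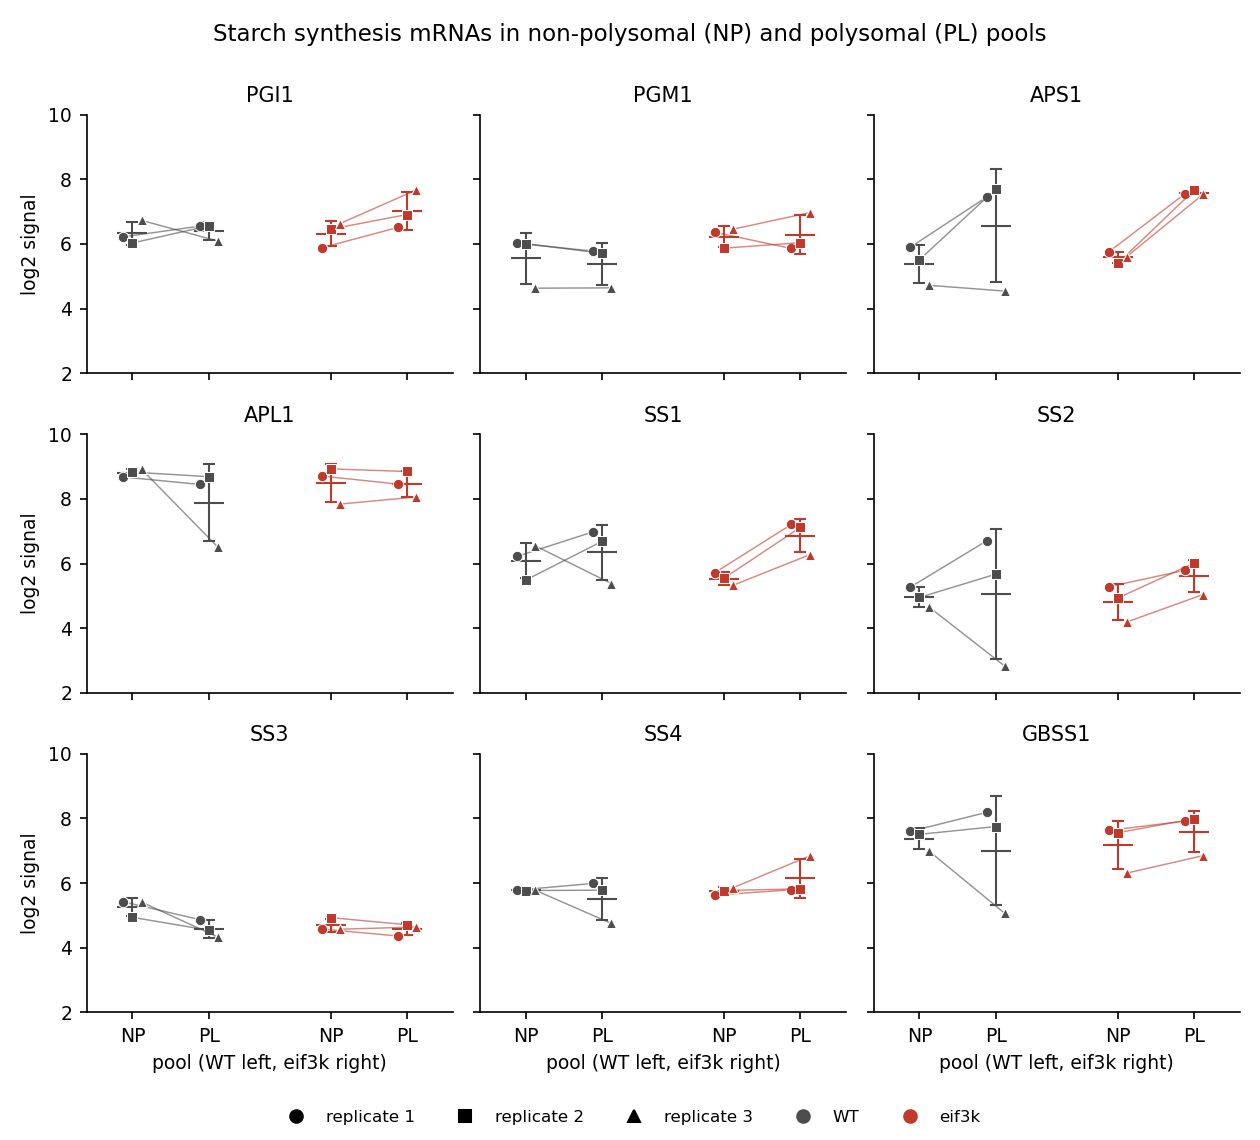
Log2 signals (vertical axis) of the 9 starch synthesis mRNAs in the NP and PL pools of WT (grey) and *eif3k* (red), drawn as for QQS, with mean and SD (n = 3). In WT replicate 3 (grey triangles) the PL signal is the lowest of the 3 WT values for all 9, for example 2.82 for SS2 and 4.54 for APS1.

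In WT replicate 3 the PL signal was high for QQS and low for the starch synthesis mRNAs. The median log2 PL of the 9 was 6.70, 6.56 and 4.75 in WT replicates 1 to 3 and 6.51, 6.91 and 6.85 in *eif3k*, and all 9 had their lowest WT value in replicate 3. QQS had its highest WT PL signal, 5.39, in that same sample. In NP the medians of the 9 stayed within 6.02, 5.77 and 5.78 in WT and 5.75, 5.77 and 5.86 in *eif3k*, while 4 of 9 (SS2, GBSS1, APS1 and PGM1) had their lowest WT value in replicate 3, as did QQS at 4.29. Over the 9814 brighter probe sets the median PL of WT replicate 3 was 5.33, against 5.94 to 6.04 in the other 5 samples.

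In PL, 8 of 9 starch synthesis mRNAs had an estimate above 0 between genotypes (median 0.59, range -0.01 to 1.02, beside 0.20 over the brighter probe sets), and without WT replicate 3 the median was 0.01. In NP, 2 of 9 were above 0 (median -0.16, range -0.56 to 0.68, beside 0.05), and the 5 synthases all lay below 0. The NP median was -0.26 without WT replicate 3 and -0.005, with 4 of 9 above 0, without replicate 3 of both genotypes. None was called in either pool, where limma called 0% of all probe sets. Unadjusted p-values under 0.05 numbered 436 in PL and 721 in NP. The NP signals of SS3 did not overlap, at 5.42, 4.94 and 5.41 in WT and 4.58, 4.93 and 4.57 in *eif3k*, a difference of -0.56 (SE 0.19, adjusted p = 0.876). The WT and *eif3k* values of replicate 2 differ there by 0.01. SS3 is 1 of 9 in NP, where 6.3% of all probe sets did not overlap.

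The starch synthesis mRNAs differed among themselves in TL, and apart from WT replicate 3 they ran in nearly the same order in both genotypes. In *eif3k* the TL was 2.00 for APS1, 1.33 for SS1, 0.81 for SS2, 0.71 for PGI1, 0.42 for GBSS1, 0.40 for SS4, 0.06 for PGM1, -0.04 for APL1 and -0.12 for SS3. In WT replicates 1 and 2 the means were 1.87 for APS1, 1.08 for SS2, 0.98 for SS1, 0.43 for PGI1, 0.42 for GBSS1, 0.11 for SS4, -0.18 for APL1, -0.27 for PGM1 and -0.48 for SS3. SS1 and SS2, and PGM1 and APL1, changed places, and QQS, at -2.63 and -2.06, lay below all 9. The neighbours from PGI1 to SS3 in this order differ by less than their SD over *eif3k* replicates in most cases, for instance SS4 at 0.40 ± 0.51 and PGM1 at 0.06 ± 0.51 (SD, n = 3).

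APS1 was the best loaded of the 9. Its TL was 1.55, 2.19 and -0.18 in WT and 1.80, 2.26 and 1.93 in *eif3k*. Against 0 it was 2.00 (SE 0.48, adjusted p = 0.0902 in limma) in *eif3k* and 1.19 (SE 0.48, adjusted p = 0.267) in WT, neither of them called. Without WT replicate 3 both were called, at 2.00 (adjusted p = 0.0171) and 1.87 (adjusted p = 0.0324), and with dim probe sets left out the *eif3k* value was called (adjusted p = 0.00926). Over the 13 alternatives the adjusted p ranged from 0.00926 to 0.351 in *eif3k* and from 0.0324 to 0.454 in WT.

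APL1, whose protein joins APS1 in one enzyme, was loaded less. Its TL was -0.23, -0.14 and -2.41 in WT and -0.25, -0.08 and 0.22 in *eif3k*. Within a sample the TL of APS1 exceeded that of APL1 by 1.78, 2.33 and 2.23 in WT and by 2.05, 2.34 and 1.71 in *eif3k*, on average 2.07 ± 0.28 (SD over 6 samples). The difference was above 0 in 6 of 6 samples and about as large in WT replicate 3 as in the others. This pair was picked after the values were seen and is given without a test.

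SS1 also had a TL above 0 in all samples but WT replicate 3, with 0.76, 1.20 and -1.17 in WT and 1.49, 1.57 and 0.94 in *eif3k*. Its value in *eif3k*, 1.33 (SE 0.50), had an adjusted p of 0.221, and 0.0317 to 0.573 over the alternatives. It was called in 2 of 13, without WT replicate 3 (0.0317) and with dim probe sets left out (0.0433). In these settings 1878 of 22746 and 2174 of 9814 probe sets were called in *eif3k*. SS3 had the lowest TL of the 9 in *eif3k* and over WT replicates 1 and 2, though with WT replicate 3 included APL1 was lower in WT (-0.93). The TL of SS3 was -0.55, -0.40 and -1.08 in WT (mean -0.68, SE 0.15, adjusted p = 0.0823) and -0.22, -0.22 and 0.07 in *eif3k*. None of the 9 starch synthesis mRNAs was called in TL against 0, beside 4.84% and 4.73% of all probe sets.

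**Figure D4:**
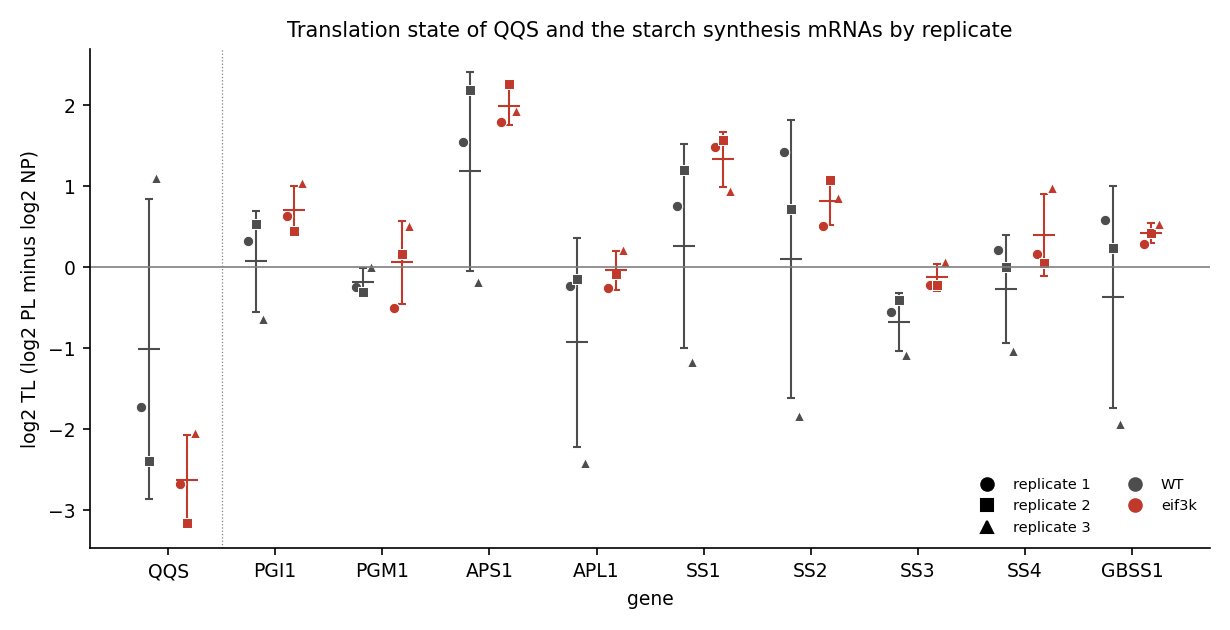
Log2 TL (log2 PL minus log2 NP, vertical axis) of QQS and the 9 starch synthesis genes in WT (grey) and *eif3k* (red), with 1 marker shape per replicate and bars for mean and SD (n = 3). QQS lies at -3.16 to -1.72 in 5 samples and at 1.10 in WT replicate 3, the sample in which 8 of the 9 starch synthesis mRNAs have their lowest WT value.

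All 9 starch synthesis mRNAs had a higher mean TL in *eif3k* than in WT, with a median difference of 0.71 (range 0.24 to 1.07), beside 0.15 over the brighter probe sets. None passed the test (adjusted p 0.823 to 0.846), where limma called 0% of probe sets and 612 of 22746 were under 0.05 before adjustment. The median TL of the 9 was 0.33, 0.24 and -1.08 in WT and 0.29, 0.43 and 0.85 in *eif3k*. The number of the 9 with a TL above 0 was 6, 6 and 1 in WT and 6, 7 and 9 in *eif3k*. By replicate number the median difference was -0.02, 0.18 and 2.11, so the third pair made most of it. Without WT replicate 3 the median was 0.28 with 8 of 9 above 0, and without replicate 3 of both genotypes 0.10 with 6 of 9 above 0.

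The largest TL difference among the 9 was 1.07 (SE 0.71) for SS1, and the smallest 0.24 (SE 0.29) for PGM1. SS3 was the only one of the 9 whose genotypes did not overlap in TL, and 6.71% of all probe sets did not overlap. Its difference was 0.55 (SE 0.21, adjusted p = 0.823) and it was 0.33, 0.18 and 1.15 by replicate number. The other estimates were 0.89 (SE 0.71) for APL1, 0.81 (SE 0.68) for APS1, 0.79 (SE 0.74) for GBSS1, 0.71 (SE 0.94) for SS2, 0.67 (SE 0.45) for SS4 and 0.63 (SE 0.38) for PGI1. The TL of QQS went the other way, at -1.62. Without WT replicate 3 the estimate for QQS was -0.57, and that of SS2 was also below 0, at -0.26. The others were then 0.35 for SS1, 0.35 for SS3, 0.33 for PGM1, 0.29 for SS4 and 0.28 for PGI1. APL1 was at 0.15, APS1 at 0.13 and GBSS1 at 0.005. The contrast with QQS thus rested in large part on that sample.

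Across the 12 arrays the signals of the starch synthesis mRNAs did not follow those of QQS closely. Pearson's r with QQS ran from -0.517 for SS1 to 0.499 for PGM1, and 6 of 9 were below 0. With WT replicate 3 left out, 8 of 9 were below 0, and r was -0.645 for SS2, -0.607 for APS1, -0.493 for GBSS1, -0.612 for SS1 and 0.459 for PGM1. The 12 arrays share 6 samples and the contrast of NP with PL, so these values are descriptions. Over 4388 genes with a highest log2 signal of at least 6 and an SD of at least 0.5, r was below that of PGM1 for 90.1%. It was below that of SS1 for 3.1%, and below those of the rest of the 9 for 26.5% to 52.6%. The 10 of these 4388 genes with the highest r (0.749 to 0.833) were MSRB5, HPL1, GG1, AT3G56360, AT3G26970, AT1G19960, MSRA5, AT4G21620, ING1 and CYP79B3. MSRB5 and MSRA5 encode methionine sulfoxide reductases, HPL1 a hydroperoxide lyase and CYP79B3 a P450 of indole glucosinolate synthesis. MSRB5, with the highest r, had a mean level of 8.49 in WT and 9.52 in *eif3k*, a difference of 1.03, and HPL1 3.84 and 5.06, a difference of 1.22. These genes were ranked by likeness to QQS, which was selected on its difference between the genotypes. Higher levels in *eif3k* among them thus follow in part from the ranking. None of the 10 was called in level (adjusted p = 0.818 each). The order was loose: 1 of the 10 was also among the first 10 by Spearman's rho, and 3 of 10 without WT replicate 3.

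Around QQS on its chromosome, the nearest 3 loci with a probe set on either side were AT3G30660, AT3G30670 and AT3G30710 on one side and AT3G30730, AT3G30740 and AT3G30750 on the other, most of them annotated as pseudogenes. They are not its immediate neighbours. In the same order, 27, 23 and 11 annotated loci lie between them and QQS on the first side and 3, 6 and 18 on the other. Their log2 signals never exceeded 2.93 on any array, and their differences in level ran from -0.13 to 0.00. QQS, with log2 signals of 3.28 to 9.57, was thus the only one of these 7 loci above 2.93. Signals at the floor have no order, and a difference below it would not be detectable on these arrays.

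The rest of the starch pathway held no called difference in level, where limma called 0.0044% of all 22746 probe sets, so this says little about the pathway. The median level difference was 0.13 over the brighter probe sets and 0.01 without WT replicate 3. Unlike those probe sets, both lists that follow also hold genes with a mean log2 signal under 4. Examples are GPT2 at 2.34 in synthesis and LSF1 at 3.28 in degradation. The list medians are thus not strictly comparable with that value, and differences of genes at the floor say little. The synthesis list also holds the cytosolic forms PGM2, PGM3 and cPGI, whereas starch is made in the plastid. Of 16 other genes of starch synthesis none was called in level (median 0.17, 12 of 16 above 0; 0.04 without WT replicate 3), nor of 16 genes of starch degradation (median 0.36, 10 of 16 above 0; 0.05 without WT replicate 3). PGM3, a cytosolic phosphoglucomutase, differed most in the first list, by 0.59 (SE 0.39; 0.20 without WT replicate 3), and PHS2, the cytosolic alpha-glucan phosphorylase, in the second, by 1.02 (SE 0.49; 0.76 without WT replicate 3, 0.30 without replicate 3 of both genotypes). The levels of PHS2 were 5.00, 5.03 and 4.24 in WT and 5.29, 5.35 and 6.68 in *eif3k*, and both adjusted p were 0.818. In TL between genotypes the medians were 0.33 and 0.43, with 14 and 13 of 16 above 0. None was called, beside 0% of all probe sets. SBE2.2, a branching enzyme, differed most in the first list, by 1.13 (SE 0.58; 0.54 without WT replicate 3), and AMY3, a plastid alpha-amylase, in the second, by 1.23 (SE 0.88; 0.34 without WT replicate 3). Without WT replicate 3 the medians in TL were 0.16 and 0.32.

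Within genotypes, 1 of the 16 other synthesis genes was called in TL against 0 in WT and 2 of 16 in *eif3k*, and 0 of the 16 degradation genes in either, beside 4.84% and 4.73% of all probe sets. SBE2.1, the other branching enzyme, had a TL of -1.34, -1.66 and -2.0 in WT and -1.20, -1.24 and -0.92 in *eif3k*. It was poorly loaded in 6 of 6 samples, with means of -1.67 (SE 0.14, adjusted p = 0.0119) and -1.12 (SE 0.14, adjusted p = 0.0259) in limma. The call held in 10 of 13 alternatives in WT (adjusted p 0.00184 to 0.0837) and in 6 of 13 in *eif3k* (0.00703 to 0.209), and it was lost with the replicate number as a block (0.0771 and 0.109). PGM2, a cytosolic phosphoglucomutase, had a TL of 1.39, 1.02 and 0.50 in WT and 1.23, 1.27 and 1.61 in *eif3k*, and it was called in *eif3k* at 1.37 (SE 0.19, adjusted p = 0.0303; 7 of 13 alternatives, 0.00459 to 0.162, and 0.121 with the replicate number as a block).

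Genes that bear on QQS showed no called difference between genotypes, where limma called 0.0044% of all probe sets in level and 0% in PL, NP and TL. With so few calls anywhere, this does not show them to be unchanged. The mRNAs of NF-YC4, which the QQS protein binds, and of KIN10 and KIN11, the catalytic subunits of the energy-sensing kinase SnRK1, differed in level by -0.10 to 0.14. The NF-YC4 signals were 2.33 to 2.81, at or near the floor, so its difference does not show the mRNA to be unchanged. Of 13 genes of DNA methylation and silencing, 5 were above 0 and 8 below in level (median -0.01, range -0.29 to 0.23), and RDR2, an RNA polymerase of the small RNA pathway, differed most, by -0.29 (SE 0.20; -0.10 without WT replicate 3). In TL the largest difference of that list was 0.66 (SE 0.47; 0.19 without WT replicate 3), for AGO4, which binds those small RNAs. Of the 13 probe sets of that list, 4 never exceeded a log2 signal of 3, so their differences say little about their mRNAs. FWA, a gene kept silent by DNA methylation, had signals between 2.33 and 3.6 and levels of 2.33 in the 3 *eif3k* samples, at the floor. DNA methylation itself was not measured on these arrays.

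The 7 genes of sugar and starvation responses had a median level difference of -0.42, which was 0.18 without WT replicate 3. None was called, beside 0.0044% of all probe sets. BT2, whose mRNA is repressed by sugar, differed most in level, by 1.16 (SE 0.70; 0.32 without replicate 3 of both genotypes), with 6.55, 6.10 and 6.00 in WT and 6.75, 6.54 and 8.83 in *eif3k*. Its TL differed by 0.99 (SE 0.69; 0.27 without WT replicate 3). In TL against 0, 2 of 7 were called in WT and 1 of 7 in *eif3k*, beside 4.84% and 4.73% of all probe sets. SEN1, a gene induced by darkness, was well loaded, with a TL of 1.74 (SE 0.26, adjusted p = 0.0345) in WT and 1.75 (SE 0.26, adjusted p = 0.035) in *eif3k*, and it stayed called in 2 and 5 of 13 alternatives (adjusted p 0.0034 to 0.25 and 0.00342 to 0.235), not with the replicate number as a block (0.137 and 0.128). DIN10, another dark-induced gene, was poorly loaded in WT, at -1.16 (SE 0.19, adjusted p = 0.0392; 6 of 13 alternatives, 0.00789 to 0.16, the latter with the replicate number as a block).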

How the data were processed

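Log2 signals per probe set of 12 ATH1 arrays were used as deposited; the authors corrected background and normalized across arrays, by GCRMA per the processing notes and RMA per the methods of the study. Software versions and the probe annotation release were not given in the sources used here, and no coordinates are printed. The deposited series value table held the same signals, and 6 deposited columns of TL were not used, TL being recomputed from the signals. Of 22810 probe sets, 64 controls were left out and 22746 tested; 22091 of 22591 single-locus probe sets were found in the TAIR10.1 gene table, which supplied names and neighbours. Arrays carry no read depth, and 3 replicates limit the precision. The study calls its replicates biological, and p-values cover only the spread seen among them, part of which may be technical.

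Tests were two-sided, in limma 3.58.1 (lmFit, eBayes; R 4.3.3), with p-values adjusted by Benjamini-Hochberg across the 22746 probe sets. A call needed an adjusted p under 0.05 and a size of 1 or more in log2. Prior degrees of freedom were 0.434 to 0.557. The fit was tested on simulated data. Plots used matplotlib 3.10.9. Alternatives were quantile normalization, leaving out probe sets with a mean under 4, the array batch (replicates 1 and 2 against 3) or the replicate number as a block, 1 fit of 12 arrays, the series value table, and leaving out each sample or replicate 3 of both genotypes. Same-numbered samples deviated together (correlations 0.134 to 0.268 in TL, level, PL and NP), so differences by replicate number were read as pairs. A shared array batch cannot be told apart from such pairing. The main fit did not pair WT with *eif3k* samples, so its SE and p-values between genotypes leave this out. The replicate number entered only as a block in an alternative.

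Members, lists and tests were chosen with earlier results of these data known. Named are the 10 members, eIF3k, list genes that were called or differed most, 3 loci on either side of QQS, and the 10 genes most like QQS.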

Additional observations from a re-analysis of the deposited data

How the results depend on the processing

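With dim probe sets left out, the probe sets called in TL against 0 rose to 2033 in WT and 2174 in *eif3k*, fewer probe sets being tested, and with the replicate number as a block (replicate block) they fell to 394 and 364. Leaving out 1 sample gave 31 to 1550 in WT and 41 to 1878 in *eif3k*. The count of calls in level, where the 1 call is the gene selected on that value and nothing is read from it, was 0 in 5 settings (12 arrays, array batch or replicate number as a block, quantile normalization, without replicate 3 of both genotypes) and 0 to 1 with 1 sample left out. Calls numbered 1 in NP with dim probe sets left out and 0 to 1 in PL with 1 sample left out, and 0 in TL between genotypes throughout. Of the 10 genes most like QQS, 1 remained by Spearman's rho and 3 without WT replicate 3. The replicate block changed no call of the 9 starch synthesis genes, nor that of QQS in TL against 0. The cause of these changes was not tested.

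No starch synthesis gene was called between the genotypes in any alternative, but estimates changed sign, among them TL differences of 0.79 (GBSS1), 0.71 (SS2) and 0.67 (SS4) and a level difference of 0.61 (APS1). Without replicate 3 of both genotypes the level differences were 0.055 for SS1, -0.14 for SS2, -0.078 for SS4 and -0.05 for APS1, the TL differences -0.28 for SS2, -0.005 for SS4 and -0.055 for GBSS1, and the TL 0.11 for SS4 and 0.42 for GBSS1 in WT and -0.16 for PGM1 in *eif3k*. Quantile normalization turned SS2 in WT TL (-0.058) and APL1 in level (-0.045). With 1 sample left out, the level difference ran from -0.15 to 0.18 for SS1, -0.44 to 0.68 for SS2, -0.39 to 0.59 for GBSS1, -0.19 to 0.39 for APL1 and -0.055 to 0.97 for APS1, and the TL difference of SS2 from -0.26 to 1.37. The WT TL ran from -0.21 to 0.98 for SS1, -0.56 to 1.07 for SS2, -0.51 to 0.11 for SS4, -0.85 to 0.42 for GBSS1 and -0.15 to 0.43 for PGI1, and the *eif3k* TL from -0.16 to 0.07 for APL1 and -0.16 to 0.34 for PGM1. QQS kept its direction in each setting, with level differences of 3.23 to 3.41, NP differences of 3.69 to 4.38, PL differences of 2.07 to 3.12 and TL differences of -2.32 to -0.57 when 1 sample was left out. Because QQS was selected on its difference between these same samples, nothing is read from this.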
